A study of Mus musculus with 4 samples.

Results

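Incretin receptors and the cAMP machinery of mouse pancreatic islets were described through 10 genes, chosen with earlier results of these data known. They were the receptor genes Glp1r, Gipr, Gcgr, Gpr119, Ffar1, Adra2a and Sstr3, the adenylyl cyclase genes Adcy5 and Adcy8, and Rapgef4, which encodes Epac2. All 10 were found by symbol among the 43629 genes of each count file. The series holds 4 RNA sequencing libraries of islets from C57BL/6 mice, 1 per group: islets of genotype control, islets of genotype Rip2;IMP2, described by the title of the series as lacking IMP2 in islets, and a pair of libraries from islets of genotype WT titled IMP2-RIP seq and IgG. RIP stands for RNA immunoprecipitation, in which RNA is recovered with an antibody to a protein, here the RNA-binding protein IMP2 (gene Igf2bp2), and IgG is the usual control antibody. Rip2 usually denotes a promoter of an insulin gene, active in beta cells, so other islet cells may keep an intact gene. The sources used here give no ages, no sexes and no number of mice pooled.

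Incretins are gut hormones that increase insulin release after a meal. GLP-1 and GIP bind receptors on beta cells that couple to the stimulatory G protein Gs, which switches on adenylyl cyclases. The cyclic AMP they make activates protein kinase A and Epac2, and both promote the fusion of insulin granules with the membrane. Receptors that couple to the inhibitory protein Gi, such as those for adrenaline and somatostatin, lower cAMP and hold insulin release back.

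Gene counts totalled 26350813 in control islets, 24275628 in the library labelled knockout, 6025594 in the IMP2 RIP and 13195732 in the IgG library. Markers of beta cells were abundant in the islet libraries and the RIP (10 of 10 detected, summing to 236058 to 335002 CPM, each count scaled to the same library total) and scarce in the IgG library (973.3 CPM). That library instead carried RNA of brown fat: its 6 brown adipocyte markers summed to 12279 CPM, against 5.09 in control islets, 3.71 in the labelled knockout and 818.2 in the RIP. Igf2bp2 itself had 222 counts in the library labelled knockout against 255 in control islets, close to the same level (ratio 0.979, 95% interval 0.814 to 1.18). The label therefore has no check in these counts, which also would not show a deletion of part of the gene. With 1 library per group, every difference lies between a pair of libraries and has no replicate check, and every interval covers counting error only.

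A pair of members was picked out from the values that follow, Rapgef4 by its high recovery in the IMP2 RIP and Gpr119 by its count of 0 there. Gpr119 had 265 counts in control islets, and on a scale of estimated molecules, given below, it was not called. Adcy8 was also at 0 in the RIP but had only 20 counts in control islets. Because RIP measures recovery of mRNA, the start of the coding sequence of Rapgef4 and of Gpr119 is shown. The transcripts are Rapgef4-202 and Gpr119-201 of GENCODE M21, with the first 150 coding bases, 5′ to 3′. Capitals mark the motif known from crosslinking studies of the IMP family, CAU followed by A, C or U, written here as CATA, CATC or CATT and searched on the mRNA strand.
Rapgef4: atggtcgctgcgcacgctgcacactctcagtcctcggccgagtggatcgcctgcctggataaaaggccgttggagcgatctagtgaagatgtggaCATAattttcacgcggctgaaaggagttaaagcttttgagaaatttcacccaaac
Gpr119: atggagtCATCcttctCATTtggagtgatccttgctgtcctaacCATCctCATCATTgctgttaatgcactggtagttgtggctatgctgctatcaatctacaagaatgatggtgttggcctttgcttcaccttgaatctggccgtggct
The Rapgef4 stretch held 1 match and the Gpr119 stretch 5. Over the whole coding sequence the motif occurred 36 times in Rapgef4 (3033 bases, 11.9 per kb) and 15 times in Gpr119 (1005 bases, 14.9 per kb). Over whole transcripts the densities were 14.6 and 16.3 per kb, above those of 91.9% and 96.9% of the 13923 measured genes with a coding transcript, whose median was 10.4. The member with the highest recovery and a member with 0 counts thus both had dense matches. The other receptors ranged from 6.64 per kb in Gcgr to 12.7 in Ffar1, and Adcy8 had 14.3. A match to these letters is not a binding site.

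The sequence before the transcription start of the same pair of genes is shown because CREB, the transcription factor that protein kinase A activates, binds the cAMP response element TGACGTCA or its core TGACG. The windows are the 250 bases before the RefSeq start (GRCm38.p6, the assembly also called mm10), chrX:48674479-48674728 on the minus strand for Gpr119 and chr2:71980965-71981214 on the plus strand for Rapgef4. Capitals mark TGACG or its reverse complement CGTCA.
Gpr119: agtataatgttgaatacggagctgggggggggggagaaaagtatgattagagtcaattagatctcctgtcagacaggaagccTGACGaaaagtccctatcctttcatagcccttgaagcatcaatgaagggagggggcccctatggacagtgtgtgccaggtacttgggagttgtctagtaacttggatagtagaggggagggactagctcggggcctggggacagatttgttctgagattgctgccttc
Rapgef4: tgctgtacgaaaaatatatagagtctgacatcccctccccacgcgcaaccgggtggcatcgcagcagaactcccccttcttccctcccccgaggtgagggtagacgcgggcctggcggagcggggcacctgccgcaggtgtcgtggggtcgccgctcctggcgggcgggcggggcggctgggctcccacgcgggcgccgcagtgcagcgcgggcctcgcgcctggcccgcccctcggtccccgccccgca
Gpr119 had 1 match, starting 168 bases before the start site, and Rapgef4 had none in this window. Windows were found for 8 of the 10 genes, 9 windows in all. A window of 3 of these genes (Adra2a, Gpr119 and Sstr3) held the core on either strand, and Sstr3 had another window without it. Of all 32851 promoter windows, counted by window and not by gene, 17.8% held the core. The full element TGACGTCA, counted above also as a core, was in 0 of the 8 genes and in 1.55% of all windows. The Gpr119 window was 50.4% G and C and the Rapgef4 window 73.6%.

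By position in mm10 the members lie on 8 chromosomes: Glp1r on 17 (30901817 to 30940791), Gipr on 7 (19156061 to 19166127), Ffar1 also on 7 (30857390 to 30861564), Gcgr on 11 (120530699 to 120538986) and Gpr119 on X (48667979 to 48674478). Adra2a lies on 19 (54044151 to 54048982), Sstr3 on 15 (78537008 to 78544685), Adcy8 also on 15 (64697084 to 64922296), Adcy5 on 16 (35154877 to 35305738) and Rapgef4 on 2 (71981240 to 72257474). Ffar1 and Adra2a consist of 1 exon, so reads from unspliced RNA or DNA would count for them in full. Of the 10 genes Rapgef4 alone shares exon bases with another annotated gene, the antisense gene Rapgef4os2, over 5.05% of its exon length. That gene had 9, 23, 0 and 0 counts in control islets, the labelled knockout, the RIP and the IgG library.

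In control islets the most abundant member per length was Gipr, the receptor of the incretin GIP, and Glp1r, the receptor of GLP-1, was much lower. Lengths are the summed exons of each gene in GENCODE M21, and levels per length are in RPKM, CPM per kilobase. Gipr stood at 48.2 RPKM (95% interval 46.8 to 49.6), followed by Sstr3, a somatostatin receptor, at 37.0 (35.9 to 38.1). Gcgr, the glucagon receptor, was at 22.8 (21.7 to 23.97) and Adra2a, the alpha-2A adrenergic receptor, at 19.0 (18.2 to 19.7). Rapgef4 was at 9.40 (8.95 to 9.86). Glp1r at 4.90 (4.56 to 5.27) and Gpr119, a receptor for lipid amides, at 4.43 (3.91 to 4.999) had overlapping intervals. Below them came Ffar1, the fatty acid receptor GPR40, at 2.09 (1.83 to 2.38) and Adcy5 at 1.5 (1.33 to 1.69). Adcy8 was near absent, at 0.0931 RPKM or 20 counts. Of the 8 other cyclase genes on the wider list, 4 stood above Adcy5 in RPKM (Adcy6, Adcy7, Adcy4 and Adcy9) and 4 below it. Adcy6, the highest, stood at 12.3 RPKM, 8.18-fold above Adcy5 (7.23 to 9.29), and the ratio was 10.5 in the labelled knockout (9.21 to 11.997).

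The order in the labelled knockout was the same except that Gpr119, at 7.48 RPKM, stood above Glp1r, at 5.69; per coding length Gpr119 was below Glp1r in both libraries. Within control islets Gipr exceeded Glp1r 9.82-fold per exon length (9.09 to 10.6), and within the labelled knockout 9.93-fold (9.21 to 10.7). Ratios of 2 genes within a library do not depend on the scaling between libraries, but they do depend on the length used. The sources used here do not name the annotation the authors counted on, and 3′ ends differ between annotations. Per coding length the ratio of Gipr to Glp1r in control islets was 5.92, Sstr3 stood above Gipr, and Adra2a above Gcgr. Both lengths left Adcy8 the lowest and Glp1r below Gipr, Sstr3, Gcgr and Adra2a.

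**Figure D1:**
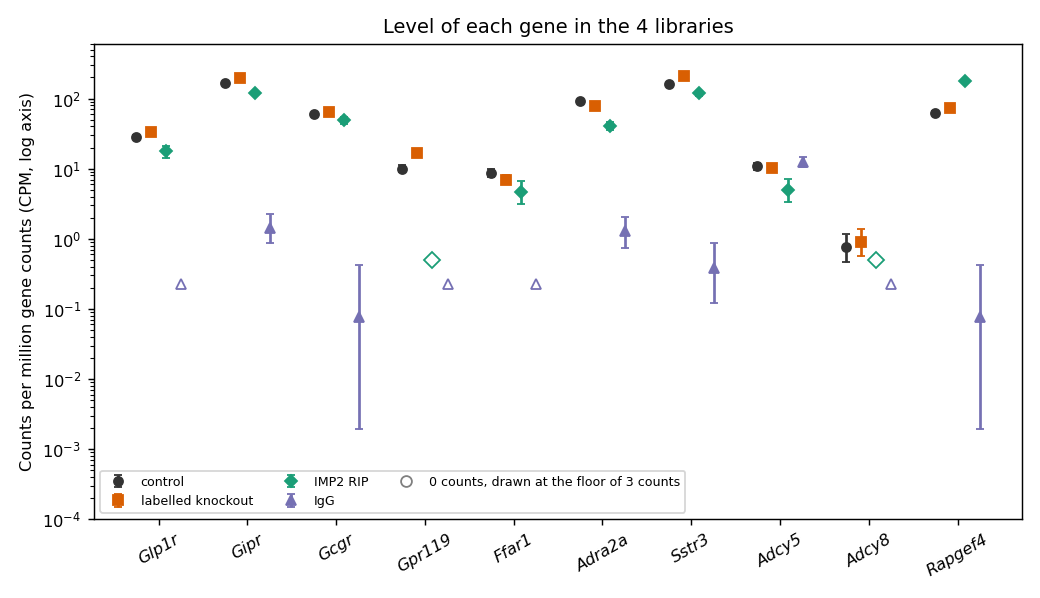
CPM (log axis) of the 10 genes in the 4 libraries, with exact Poisson 95% intervals; open symbols are libraries with 0 counts, drawn at the floor of 3 counts. Rapgef4 is highest in the IMP2 RIP, Gpr119 is at 0 there, and Adcy5 alone is at a similar level in the IgG library as in islets.

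The library labelled knockout was compared with control islets to ask which RNAs differ in level where IMP2 is said to be removed. A gene counted as measured when its mean over both libraries was at least 1 CPM, and was called when the 95% interval of its scaled ratio left out 1 and the difference reached 1.5-fold. Of the 10 members 9 were measured. Gpr119 was called higher, none was called lower, and the other 8 stayed within 1.5-fold. Calls took in 6.13% of all 15735 measured genes on the higher side and 15.3% on the lower side (21.4% in all). Without regard to size, the interval left out 1 for 7 of the 9 members and for 60.4% of all measured genes. The members' median log2 ratio was 0.26, and that of all measured genes 0.00. In such bulk RNA, fewer cells of a type and less RNA per cell cannot be told apart.

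Among the receptors that couple to Gs, Glp1r had 751 counts (28.5 CPM) in control islets against 802 (33.0 CPM) with the knockout label, a ratio of 1.2 (1.09 to 1.33). Gipr had 4419 and 4771 counts (167.7 and 196.5 CPM), a ratio of 1.21 (1.16 to 1.26). Gcgr had 1576 and 1575 counts, a ratio of 1.12 (1.05 to 1.21) after scaling for the smaller library. None of these 3 hormone receptors was called, and with the beta cell markers at 1 their log2 ratios were -0.03, -0.02 and -0.13. Gpr119 went from 265 to 412 counts (10.1 to 17.0 CPM), a ratio of 1.75 (1.49 to 2.05). There were 434 measured genes with a higher ratio than Gpr119. Gpr119 lies on the X chromosome, and Y-linked genes had a summed level of 7.48 CPM in the control library against 0.824 in the labelled knockout; their part in the result was not tested. With the median ratio of 10 beta cell markers set to 1, or with an assumed variation of 0.2 per library, Gpr119 was not called.

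The other receptors went in both directions. Ffar1, which couples to Gq and acts through calcium rather than cAMP, had 230 and 169 counts, a ratio of 0.826 (0.673 to 1.01). Adra2a, which mediates the block of insulin release by adrenaline, had 2415 and 1906 counts, a ratio of 0.887 (0.835 to 0.942). Sstr3, which carries the inhibitory signal of somatostatin, had 4208 and 5044, a ratio of 1.35 (1.29 to 1.40), the highest of the members not called. These inhibitory receptors, both coupled to Gi, thus lay on opposite sides of 1, and the ratio of Sstr3 to Adra2a per exon length was 1.95 in control islets (1.85 to 2.05) and 2.96 in the labelled knockout (2.81 to 3.12).

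Downstream of the receptors neither measured member was called. Rapgef4, the cAMP sensor of the exocytosis machinery, had 1654 and 1786 counts (62.8 and 73.6 CPM), a ratio of 1.21 (1.13 to 1.30). Adcy5 had 284 and 250 counts, a ratio of 0.990 (0.831 to 1.18). Adcy8, a cyclase stimulated by calcium and calmodulin, had 20 and 22 counts and was below the limit of 1 CPM, so a difference in it was not detectable at this depth.

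Marker RNA of other cell types differed between the same libraries. The 6 alpha cell markers went from 15260 CPM in sum in control islets to 26127, and 4 of the 6 were called higher. The 10 beta cell markers summed to 309568 and 335002 CPM, with 1 called higher and a median log2 ratio of 0.29. All 8 markers of B and T lymphocytes were called lower, from 860.3 to 157.1 CPM in sum. Their part in the members' ratios was not tested. With the median ratio of the beta cell markers set to 1, the log2 ratio was between -0.03 and -0.02 for Glp1r, Gipr and Rapgef4. On that scale Gpr119 was at 0.51 and Sstr3 at 0.13, and Gcgr was at -0.13, Adcy5 at -0.31, Adra2a at -0.47 and Ffar1 at -0.57.

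**Figure D2:**
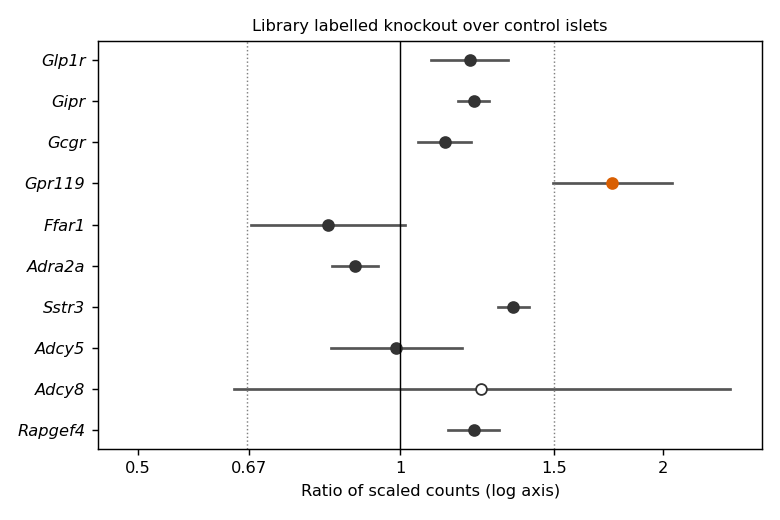
Ratio of scaled counts, library labelled knockout over control islets (log axis), with exact 95% intervals; dotted lines mark 1.5-fold, the orange point is called and the open point is under 1 CPM. Gpr119 at 1.75 is the point beyond the dotted line, and Adra2a and Sstr3 lie on opposite sides of 1.

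A wider list of 128 genes of the cAMP pathway, not counting the members, was read for comparison. Of these, 127 were matched by symbol and 112 were measured. Of the measured ones 12 were called higher and 14 lower, where the shares of all measured genes were 6.13% and 15.3%. The list had a median log2 ratio of 0.06. Besides Gcg, the gene of glucagon and GLP-1, at 1.81-fold, the genes called higher included the calcium-stimulated cyclase gene Adcy1 (2.43-fold, 145 counts against 67), the somatostatin receptor gene Sstr2 (2.01-fold, 91 against 51), Gnao1 (1.5-fold), which encodes an inhibitory G protein subunit, and Crem (1.60-fold), a transcription factor related to CREB. Gnas, which encodes the Gs alpha subunit, was called 1.90-fold higher, but it stood at only 609 counts in control islets in a locus with several overlapping transcripts, so this count is uncertain.

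The genes called lower included Adcy7 (3.17-fold lower, 510 counts against 1815) and Pde7a (2.21-fold lower), a phosphodiesterase, which breaks cAMP down. Npy1r was 3.09-fold lower (125 and 36 counts). Of the 9 genes of receptor kinases, arrestins and RGS proteins, which end receptor signalling, 3 were called lower and none higher, where 15.3% of all measured genes were called lower: Grk6 at 2.33-fold, Arrb1 at 1.71-fold and Grk2. Phosphodiesterases (3 of 14), protein kinase A subunits and partners (1 of 14) and cAMP-induced genes (1 of 7) also had lower calls and no higher ones. Other roles had higher calls alone, such as G protein subunits (2 of 13) and the other Gq-coupled receptors (2 of 8). Calls went both ways for the other Gi-coupled receptors (4 higher and 1 lower of 8) and the other Gs-coupled receptors (1 and 3 of 12). They also did for the other cyclases (1 and 1 of 7) and the CREB family and its partners (1 and 1 of 9). Of all measured genes 6.13% were called higher, so counts this small in either direction are descriptions only. The lymphocyte markers were lower in the same library by a median log2 ratio of -2.63, and their part in these values was not tested. The catalytic subunit gene of protein kinase A, Prkaca, had a ratio of 1.17, and Rapgef3, which encodes Epac1, also 1.17. None of the 5 genes of Epac1, the Rap proteins and their docking partners was called.

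**Figure D3:**
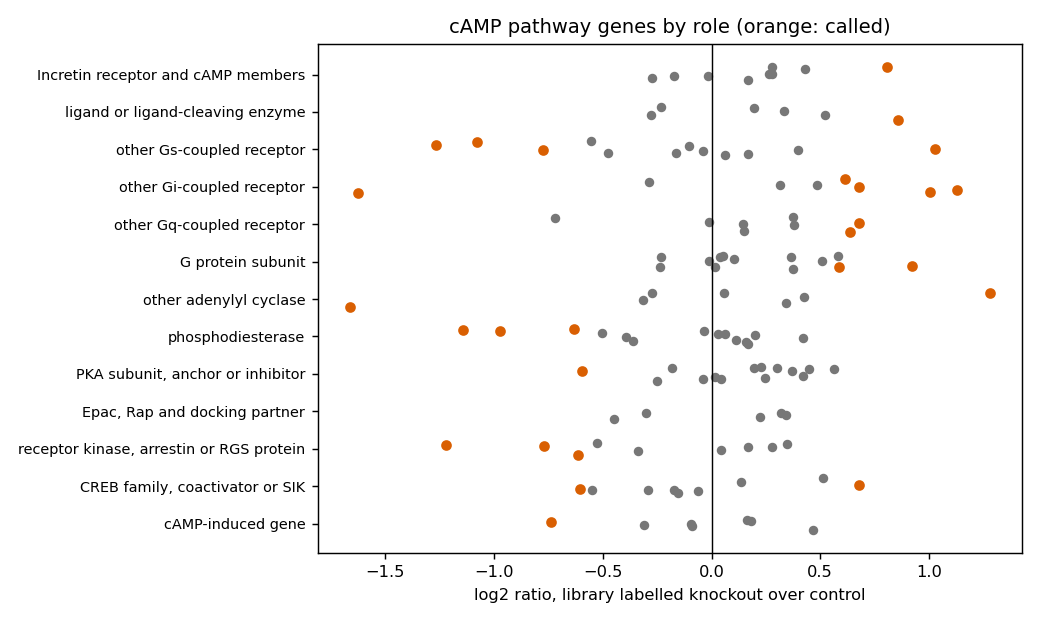
log2 ratio of the library labelled knockout over control islets for the measured members (top row) and the wider cAMP list by role; each point is a gene and orange points were called. Called genes lie on both sides of 0. Some roles were called on the lower side alone, others on the higher side alone and others on both.

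The IMP2 RIP was compared with control islets, which serve as the nearest measure of the input RNA, and with the IgG library, to ask which RNAs were recovered with IMP2. Here calls needed a 2-fold ratio. Against control islets 9 members were measured: Rapgef4 was called higher, Gpr119 lower, and 7 were not called. Among all 15968 genes measured here, the share called was 16.8% higher and 24.3% lower (41.2% in all), and at any size the interval left out 1 for 8 of the 9 members and 77.8% of all genes. Rapgef4 had 1083 counts in the RIP (179.7 CPM) against 1654 in the more deeply sequenced control library (62.8 CPM), a ratio of 3.48 (3.22 to 3.75). It was the only member whose interval lay above 1, and its log2 ratio of 1.80 ranged over the scalings from 1.37, without acinar and hormone genes in the totals, to 1.86, with the beta cell markers at 1. Per length it took the fifth place among the members in control islets and the third in the RIP, at 26.9 RPKM, where its interval (25.3 to 28.6) overlapped that of Sstr3 (25.5 to 29.6).

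Of all measured genes 1615 had a higher ratio of RIP over control than Rapgef4. A narrower set leaves out RNA abundant in the IgG library. Of 1000 genes at 20 CPM or more in control islets and under 1 CPM in the IgG library, a set chosen after the values were seen, 2 had a higher ratio of RIP over control: Phactr1 at 4.49 (4264 counts in the RIP) and Synpr at 3.76 (462 counts). The median ratio of the set was 0.726. From 5 CPM, 27 of 2786 such genes lay above Rapgef4. Both sets also hold lymphocyte genes such as Cd79a and Ms4a1, and all 8 lymphocyte markers were called lower in the RIP. The part of lymphocyte genes in the median and in these places was not tested. The 10 beta cell markers had a median log2 ratio of -0.06. Rapgef3, the gene of Epac1, had 109 counts in the RIP and a ratio of 0.781 (0.633 to 0.956), and within a library Rapgef4 exceeded Rapgef3 per exon length 2.12-fold in control islets (1.94 to 2.31), 2.20-fold in the labelled knockout and 9.43-fold in the RIP (7.74 to 11.6). The genes of Epac1 and Epac2 thus differed in their recovery.

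**Figure D4:**
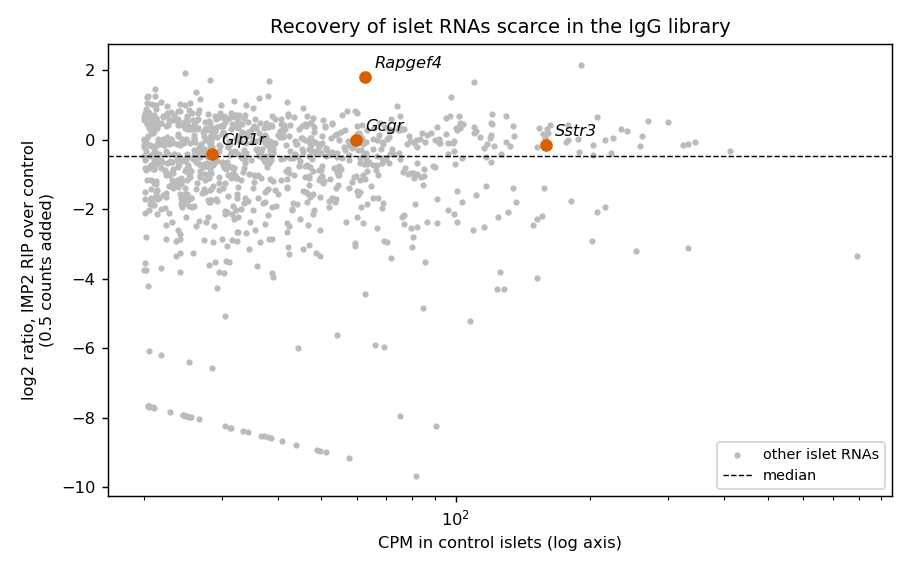
log2 ratio of IMP2 RIP over control islets against the level in control islets (log axis). The points are 1000 genes at 20 CPM or more in control islets and under 1 CPM in the IgG library, lymphocyte genes among them. Members in the set are orange and the dashed line is the median. Rapgef4 lies near the top, and Glp1r, Gcgr and Sstr3 lie within the main band.

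Gpr119 had 0 counts in the RIP, where its level in control islets and the scaling would give 49.9, so it was at least 16.6-fold lower, computed against 3 counts in the RIP. Reads of that library may be many per original molecule. Genes at 0 in both islet libraries and over 5 counts in the RIP had a median of 18 counts there, assumed here as reads per molecule. The limit of over 5 counts raises that median, and such genes may hold several molecules each, so the number was not measured. On that assumed scale 2.77 molecules of Gpr119 were due, and the call was lost. Of 514 genes with 212 to 318 counts in control islets and under 1 CPM in the IgG library, 84 (16.3%) were likewise at 0 in the RIP. That set was not limited to genes of islet cells. All 8 lymphocyte markers were called lower in the RIP (median log2 ratio -3.56), and the part of lymphocyte genes in the 16.3% was not tested. On the same assumed scale Rapgef4 corresponds to 60.2 molecules and kept its call (interval 2.64 to 4.50). Adcy8 was also at 0, where 3.77 counts were due, below the limit for a call.

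The remaining members were recovered about as control islets would give, or somewhat less. Gcgr had 297 counts and a ratio of 1.0 (0.881 to 1.13), Sstr3 716 and 0.903 (0.833 to 0.978), and Gipr 719 and 0.864 (0.797 to 0.935). Glp1r followed with 106 counts and 0.749 (0.605 to 0.919). Ffar1 (28 counts) was at 0.646, Adcy5 (30 counts) at 0.561 and Adra2a (247 counts) at 0.543 (0.474 to 0.619), the lowest of the well-counted receptors. Under library totals Adra2a and Adcy5 were called lower, at log2 ratios of -1.16 and -1.11. On estimated molecules Adra2a alone of these 7 had an interval that excluded 1 (0.294 to 0.917).

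Against the IgG library 8 members were measured, 7 of them called higher in the RIP and Adcy5 called lower. Over the whole table of 14822 genes measured, 43.2% were called higher and 30.5% lower (73.7% in all), and at any size the interval left out 1 for all 8 members and 89.2% of all genes. Glp1r and Ffar1 had 0 counts in the IgG library and were at least 48.0-fold and 12.7-fold higher in the RIP, computed against 3 counts in the IgG library. Gipr had 19 counts there (ratio 51.4, 32.7 to 85.9), Adra2a 17 (19.7, 12.1 to 34.4) and Sstr3 5 (194.5, 83.0 to 600.8). Gcgr and Rapgef4 had 1 count each in the IgG library, with ratios of 403.4 (71.8 to 15986) and 1471 (263.4 to 58152). The beta cell markers, called higher in 10 of 10 cases, had a median log2 ratio of 7.30, and relative to it the log2 ratio was 3.21 for Rapgef4, 0.29 for Sstr3, -1.63 for Gipr and -3.01 for Adra2a. On estimated molecules the call of Ffar1 was lost.

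Adcy5 was the exception among the members. It had 166 counts in the IgG library (12.6 CPM), close to the 10.8 CPM of control islets, and 30 in the RIP (4.98 CPM), 4.07-fold lower than in the IgG library (2.75 to 6.23). The brown adipocyte markers were high in the same library, as given above, and their part in the Adcy5 value was not tested. Without acinar and hormone genes in the totals, and on estimated molecules, Adcy5 was not called. The RIP and IgG libraries thus differ in tissue markers as well as in antibody, and these cannot be told apart for any member.

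**Figure D5:**
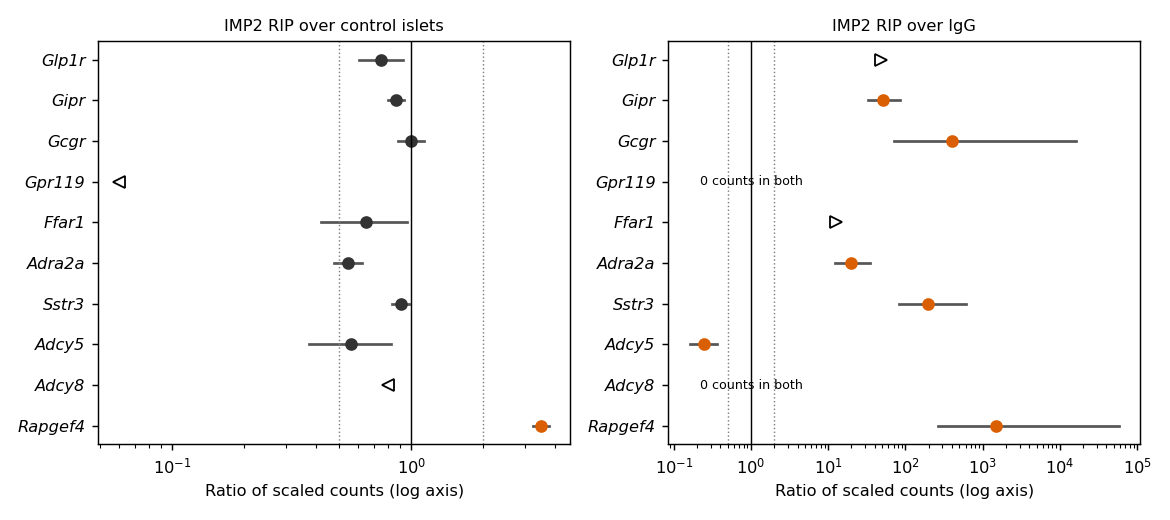
Ratio of scaled counts (log axes) of the IMP2 RIP over control islets (left) and over the IgG library (right), with exact 95% intervals. Orange points are called and dotted lines mark 2-fold. Arrowheads, black whether called or not, are bounds computed against 3 counts where a library had 0. Rapgef4 is the highest point in both panels. On the right it rests on 1 count in the IgG library and its interval overlaps that of Gcgr. Gpr119 and Adcy8 are bounds on the lower side on the left, and Adcy5 lies below 1 in both panels.

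Of all genes measured in the RIP against control islets 16.8% were called higher and 24.3% lower. In the wider list 111 genes were measured, 15 called higher and 23 lower, with a median log2 ratio of 0.00. Those called higher included the adrenergic receptor genes Adrb3 (36 counts, and 0 in control islets) and Adrb1 (9.52-fold, 52 counts against 29), the kinase anchor gene Akap5 (6.43-fold), the CRH receptor gene Crhr1 (4.76-fold) and Adora1 (3.14-fold). Adrb3, the beta-3 adrenergic receptor known from brown fat, had 2905 counts in the IgG library. Those called lower included Ptger4, at 0 in the RIP, Akap7 with 1 count, the arrestin gene Arrb1 (11.7-fold) and Grk6 (3.73-fold). All 8 lymphocyte markers were also called lower in the RIP against control islets, with a median log2 ratio of -3.56. Their part in these values was not tested. On estimated molecules 7 genes of the wider list were called higher and 5 lower. Rims2, which encodes a granule docking partner of Epac2, was called lower at a ratio of 0.312, but not on estimated molecules.

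Of all genes measured against the IgG library 43.2% were called higher and 30.5% lower. In the wider list 110 genes were measured, 56 called higher and 29 lower. Among those called higher were the islet hormone genes Pyy (165.8-fold), Sst (133.7-fold) and Gcg (130.7-fold), Prkar1b (428.5-fold), which encodes a regulatory subunit of protein kinase A, and Crtc1 (101.6-fold), a CREB coactivator. Among those called lower were Adrb3 (59.4-fold), Prkar2b (14.5-fold), which encodes another regulatory subunit, and Prkaca (6.78-fold). Members and list thus both held genes on either side.

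The genes most like Glp1r in their profile over the 4 libraries were Asphd1, Nnt, Cryba2, Il1r1 and Sgpp2, by Euclidean distance of centred log2 CPM among 11542 genes (distances 0.0556 to 0.125). Asphd1, the nearest, had 829, 892, 122 and 1 counts in control islets, the labelled knockout, the RIP and the IgG library, beside 751, 802, 106 and 0 for Glp1r. Of the members the nearest to Glp1r were Adra2a (distance 0.550) and Gipr (0.582), and the farthest Adcy5 (5.45). Over 4 libraries such a distance is a description of shared levels.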

How the data were processed

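The authors deposited whole-number read counts per Ensembl gene, 1 file per library, made with STAR and HTSeq on mm10, per the submitters' processing notes (the sources used here give no versions, annotation release or strand option). The 5 closing entries that name no gene held 50.8%, 50.3%, 72.4% and 70.5% of the deposited totals (control, labelled knockout, RIP, IgG) and stayed out. Symbols and exon lengths came from GENCODE M21 (42548 of 43629 identifiers matched).

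Pairs of libraries were scaled by TMM (edgeR 4.0.16, R 4.3.3). Ratios have exact Clopper-Pearson 95% intervals and levels exact Poisson ones; reads are not independent molecules, so these cover counting error only. List medians used 0.5 added counts. The floor of 3 counts was 0.114, 0.124, 0.498 and 0.227 CPM in the same order. The interval code was tested on simulated data. With 1 library per group no test was made and no p-value is given.

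Named genes were the 10 members, Igf2bp2, Gnas, Prkaca, Rapgef3, from the wider list those called with the most distant near bound of the interval (up to 6 each way), with some further called genes chosen after their values were seen, and the 5 genes nearest to Glp1r. Members and lists were chosen with earlier results of these data known. Of 128 listed pathway genes, Pde2a was not matched and was not analysed here. A gene of the wider list that met this rule is not reported here. Alternatives were other scalings (library totals, DESeq2 1.42.0 size factors, totals without acinar and hormone genes, beta cell markers at 1), expression limits (none, or 5 CPM), fold limits, an assumed variation, estimated molecules and, added after seeing the data, coding length. Intervals and figures were made in Python 3.11.15 with pandas 2.3.3, SciPy 1.17.1, Matplotlib 3.10.9 and NumPy 2.4.6.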

Additional observations from a re-analysis of the deposited data

How the results depend on the processing

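No paired analysis was possible because each group has 1 library, and for the same reason no library could be left out. Of 116 recomputed counts of calls 81 stayed within 1.5 times, and of 96 recomputed log2 ratios of members 66 stayed within their interval. Against control islets, the labelled knockout had 1 member called higher and 0 lower; it had 0 higher with the beta cell markers at 1, with a 2-fold limit or with an assumed variation of 0.2, and 6 higher and 1 lower with no fold limit. The RIP against control islets had 1 member higher and 1 lower. It had 0 higher with a 4-fold limit, and 3 lower under library totals, 4 without acinar and hormone genes and 7 with no fold limit. On estimated molecules 0 were lower. With the assumed variation 0 were also lower, but that setting gave no interval to a gene with 0 counts in a library. Gpr119 could therefore not be called there, and the setting does not bear on it. The RIP against IgG had 7 higher and 1 lower; with the beta cell markers at 1 it had 1 higher and 3 lower, where Gipr (-1.63) and Adra2a (-3.01) changed sign on the log2 scale, and 0 were lower without acinar and hormone genes or on estimated molecules.

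For the wider list, the knockout counts (12 higher, 14 lower) were 4 and 28 with the beta cell markers at 1, 48 and 34 with no fold limit, 4 and 6 with a 2-fold limit and 5 and 7 with the assumed variation; 7 were higher at 5 CPM. The RIP against control (15 and 23) gave 41 and 43 with no fold limit, 5 and 7 with a 4-fold limit and 7 and 5 on estimated molecules; 9 were higher at 5 CPM. The RIP against IgG (56 and 29) gave 0 and 81 with the beta cell markers at 1 and 34 and 18 on estimated molecules.

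Over all genes, the beta cell markers at 1 moved the median log2 ratio by -0.30 in the knockout comparison and -7.31 against IgG, and changed the calls from 965 higher and 2409 lower to 268 and 4131, and from 6402 and 4518 to 7 and 11437. Library totals gave 2175 and 4832 in the RIP against control, in place of 2686 and 3888. The smallest library, the RIP, limits the low members: the floor of 3 counts is 0.498 CPM there. The causes of these shifts were not tested.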
